A study of Homo sapiens with 9 samples.

Results

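The WNT, BMP, FGF and Hedgehog signalling genes were taken from a table of transcript levels by their symbols. The rule took every symbol that begins with WNT, FZD, SFRP, DKK, BMP, BMPR, FGF, FGFR, PTCH or GLI followed by a number, together with SHH, IHH, DHH, SMO, HHIP, LRP5 and LRP6. It found 93 genes among the 26228 rows of the table, with 39 in the WNT branch, 13 in the BMP branch, 26 in the FGF branch and 10 in the Hedgehog branch. The other 5 genes carry a family name without being a ligand, receptor or mediator of the pathway, and are described apart from the rest: BMP1, a procollagen protease, BMP2K, a kinase, FGFR1OP and FGFR1OP2, named after fusions with FGFR1, and GLI4, a zinc finger protein.

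The libraries come from Jurkat cells, an established human line of T-cell acute lymphoblastic leukaemia. The groups are EZH2-KO1 and EZH2-KO2, which were edited with CRISPR/Cas9 and are called KO1 and KO2 here, and EZH2-WT, called WT, whose EZH2 status is given as wild type. Each group has 3 libraries, described as biological triplicates, and all 9 come from growing cultures in RPMI medium with serum, with no treatment named in the labels. Each of KO1 and KO2 is 1 line, so replicate error here is that of cultures of the same line and covers no independent edits, and whether the lines are clones is not given in the sources used here.

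EZH2 is the catalytic subunit of Polycomb repressive complex 2, an enzyme that marks the promoters of silent developmental genes with H3K27me3. The 4 pathways are among the classes of gene best known as Polycomb targets. WNT ligands bind a Frizzled receptor and the coreceptors LRP5 or LRP6, which stabilises β-catenin, and SFRP and DKK proteins block that step from outside the cell. BMP ligands act through receptor kinases and SMAD proteins, FGF ligands through the FGFR tyrosine kinases, and Hedgehog ligands by releasing SMO from the receptor PTCH1, so that the GLI transcription factors become active. WNT signalling through β-catenin, TCF7 and LEF1 is a known part of thymocyte development, and the thymic stroma is a known source of WNT, BMP and Hedgehog ligands.

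Promoter sequences were printed for 4 genes that were higher in the edited lines, a WNT ligand, a WNT receptor, an FGF receptor and a BMP ligand, to show how many CG dinucleotides such a promoter holds, since Polycomb marks lie mostly over CG-rich promoters. They come from RefSeq on build GRCh38.p14, 5′ to 3′ on the gene's strand, and run from 250 bases before to 50 bases after the annotated start. Capitals mark CG dinucleotides. WNT5A lies on the minus strand at chr3:55487257-55487556 and FZD1 on the plus strand at chr7:91264183-91264482. FGFR2 lies on the minus strand at chr10:121598395-121598694 and BMP6 on the plus strand at chr6:7725849-7726148.
WNT5A: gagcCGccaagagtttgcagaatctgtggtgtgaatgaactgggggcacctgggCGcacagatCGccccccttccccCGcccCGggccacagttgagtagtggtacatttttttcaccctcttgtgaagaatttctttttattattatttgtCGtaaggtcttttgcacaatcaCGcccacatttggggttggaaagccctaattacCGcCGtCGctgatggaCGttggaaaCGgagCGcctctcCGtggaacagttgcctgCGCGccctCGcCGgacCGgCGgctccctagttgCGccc
FZD1: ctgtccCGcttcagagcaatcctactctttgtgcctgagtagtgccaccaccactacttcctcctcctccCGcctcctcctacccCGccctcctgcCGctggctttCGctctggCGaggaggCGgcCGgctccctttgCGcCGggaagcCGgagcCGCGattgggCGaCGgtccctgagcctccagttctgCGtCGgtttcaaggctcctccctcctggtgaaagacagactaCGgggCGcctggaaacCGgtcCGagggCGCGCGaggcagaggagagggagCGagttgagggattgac
FGFR2: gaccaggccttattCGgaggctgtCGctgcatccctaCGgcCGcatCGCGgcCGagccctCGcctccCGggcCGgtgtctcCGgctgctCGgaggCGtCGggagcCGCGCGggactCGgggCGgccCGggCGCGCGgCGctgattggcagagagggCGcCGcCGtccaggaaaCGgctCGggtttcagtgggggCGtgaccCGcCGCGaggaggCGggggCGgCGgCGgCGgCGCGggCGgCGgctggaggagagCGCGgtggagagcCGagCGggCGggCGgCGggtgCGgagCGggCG
BMP6: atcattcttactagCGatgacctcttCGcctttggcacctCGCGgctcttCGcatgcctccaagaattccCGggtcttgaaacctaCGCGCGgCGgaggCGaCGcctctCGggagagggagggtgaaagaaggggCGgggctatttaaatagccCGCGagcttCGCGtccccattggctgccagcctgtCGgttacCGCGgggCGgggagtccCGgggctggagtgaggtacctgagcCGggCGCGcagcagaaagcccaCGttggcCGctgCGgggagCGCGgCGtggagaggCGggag

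These windows hold 21, 25, 52 and 33 CG dinucleotides in the order printed. The table of promoters held 63 of the 93 genes, and the median window among them had 30 CG dinucleotides, against 14.0 over all 27305 genes with a window. The 23 with every KO1 library above every WT library had a median of 31.0, and the 4 with every KO1 library below every WT library a median of 28.0. The 22 genes with every KO2 library above WT had a median of 30.5, the 5 below 30, the 18 tested genes 29.5 and the 16 listed at 0 in all libraries 23.0. These are descriptions of the annotated start only, and a value for a whole gene does not show which start was used. WNT5A has 2 windows in that table and FGFR2 and PTCH1 have 5 each, of which the first was used.

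The PTCH1 promoter was printed because PTCH1 fell in both edited lines and is a textbook target of the GLI factors. The window, the first of 5 listed for PTCH1, lies on the minus strand at chr9:95509217-95509516. Capitals mark a match to the GLI site GACCACCCA on the opposite strand.
PTCH1: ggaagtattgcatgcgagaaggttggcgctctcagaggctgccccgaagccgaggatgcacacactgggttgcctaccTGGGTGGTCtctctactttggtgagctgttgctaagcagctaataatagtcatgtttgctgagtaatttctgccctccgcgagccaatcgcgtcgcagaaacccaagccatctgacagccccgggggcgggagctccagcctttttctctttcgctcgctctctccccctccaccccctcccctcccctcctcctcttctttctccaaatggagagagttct

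That site was searched on both strands and was present in 1 of the 63 windows, against 0.249% of all genes with a window. The TCF and LEF site CTTTGAT, also searched on both strands, was in 1 of the 63 windows, that of FGF18, against 2.64% of all genes. The 2 searched sites do not overlap each other, and a match is a description of the letters in the window.

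Most of the 93 genes were near or at 0. Values are FPKM, fragments divided by transcript length and by the mapped total, so that levels can be set beside each other between genes. Of the 93 genes, 23 were listed at 0 in all 9 libraries, 29 were above 0 with no library at 0.3 FPKM, and 11 reached 0.3 FPKM without passing the filter. The filter for the test asked for at least 1 FPKM in 3 or more of the 9 libraries, and 30 genes passed it, as did 11737 genes of the whole table. The 8 SFRP and DKK genes and the 3 Hedgehog ligand genes SHH, IHH and DHH all stayed below it. The highest library among them was 0.131 FPKM for DKK3. Of the 18 FGF ligand genes, FGF9 alone passed, and of the 19 WNT genes, WNT3, WNT5A and WNT10B. Receptors were the better measured class, with all 4 FGFR genes, 6 of the 10 Frizzled genes and both coreceptors tested.

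**Figure D1:**
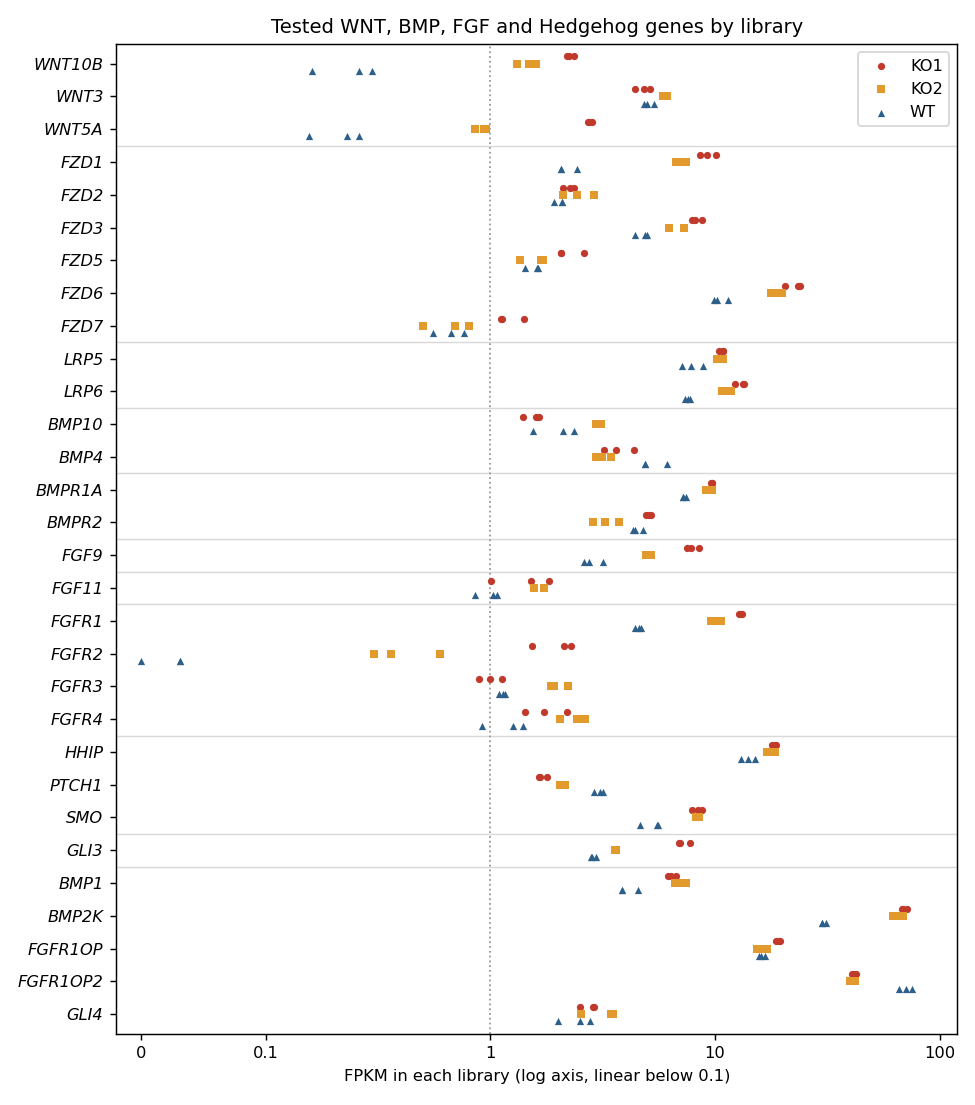
FPKM of the 30 tested genes in each of the 9 libraries (log axis, linear below 0.1), with KO1 as circles, KO2 as squares and WT as triangles, and genes ordered by role. The dotted line marks 1 FPKM; WNT10B, WNT5A, FGFR2 and FZD7 lie below it in every WT library.

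Signalling genes that were measured were more often higher than lower in the edited lines. Log2 fold changes are on the log2(FPKM + 1) scale, given ± SE from limma, which understates changes of weakly expressed genes, and a gene rose or fell where its Benjamini-Hochberg adjusted p over all 11737 genes was under 0.05. In KO1 23 of the 30 tested genes passed, against 67.5% of all tested genes, with 20 rising and 3 falling, against 35.6% and 31.9%. In KO2 25 passed, against 64.7%, with 21 rising and 4 falling, against 38.1% and 26.6%. The median log2 fold change of the 30 genes was 0.38 in KO1 and 0.43 in KO2, beside 0.02 and 0.06 over all tested genes, and both comparisons use the same WT libraries.

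WNT10B, WNT5A, FGFR2 and FZD7 passed the filter only through edited libraries, so part of their difference from WT is set by the filter. Among the 26 tested genes with a WT library at 1 FPKM or more, KO1 had 16 rises and 3 falls, and KO2 had 18 rises and 4 falls. No share was taken over all genes with a WT library at that level, so these counts have no matching background. Ranges were also compared without a test. Of the 70 genes above 0 in any library, 38 had every KO1 library above every WT library and 4 every KO1 library below, against 29.3% and 23.7% of all genes above 0 in any library. In KO2 these counts were 34 and 5, against 31.3% and 20.8%. The 70 include the 30 tested genes, and among the 40 untested ones 16 were above and 1 below WT in KO1, and 12 above and 1 below in KO2. No share was taken over all untested genes, and the shares above include tested ones. The counts of the 40 therefore have no background to be read against.

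**Figure D2:**
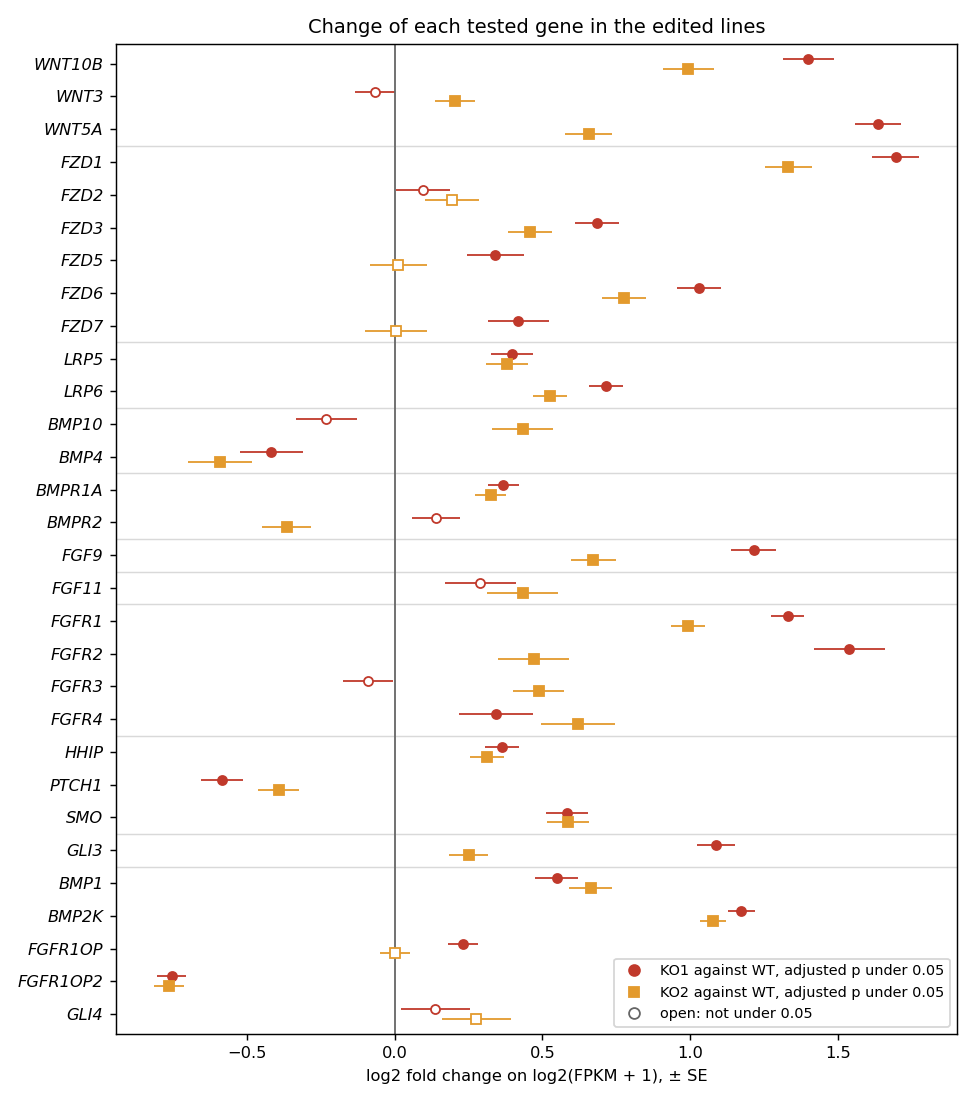
Log2 fold change (± SE, limma, on log2(FPKM + 1)) of the 30 tested genes in KO1 (circles) and KO2 (squares) against WT, ordered by role, with filled symbols for adjusted p under 0.05. FZD1, WNT5A and FGFR2 stand farthest right in KO1, and FGFR1OP2, PTCH1 and BMP4 lie left of 0 in both lines.

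Among the WNT ligands, WNT10B and WNT5A were higher in both edited lines, and WNT3 was the most abundant in WT. WNT10B had 2.24, 2.19 and 2.36 FPKM in KO1 and 1.31, 1.48 and 1.60 FPKM in KO2, against 0.160, 0.259 and 0.297 FPKM in WT. WNT10B is a ligand of the β-catenin branch, and its groups did not overlap. It rose in KO1 (1.40 ± 0.09, adjusted p = 1.76e-07) and in KO2 (0.99 ± 0.09, adjusted p = 3.09e-06).

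WNT5A had 2.73, 2.75 and 2.83 FPKM in KO1 and 0.955, 0.937 and 0.85 FPKM in KO2, against 0.155, 0.231 and 0.259 FPKM in WT. WNT5A is the main ligand of β-catenin-independent signalling, and its KO1 libraries stood above all KO2 libraries, which stood above all WT libraries. It rose in KO1 (1.63 ± 0.08, adjusted p = 3.05e-08) and in KO2 (0.66 ± 0.08, adjusted p = 3.65e-05), although the KO2 call was lost after quantile normalization (0.18, adjusted p = 0.0757).

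WNT3 had 4.41, 5.14 and 4.83 FPKM in KO1 and 5.93, 5.88 and 6.10 FPKM in KO2, against 5.32, 4.99 and 4.85 FPKM in WT. WNT3 is another ligand of the β-catenin branch, and its KO1 range overlapped that of WT while its KO2 libraries were all higher. It had a log2 fold change of -0.06 ± 0.07 in KO1 (adjusted p = 0.415) and rose in KO2 (0.20 ± 0.07, adjusted p = 0.0212). That small rise was lost without KO2 replicate 3 (adjusted p = 0.0635), without WT replicate 2 (0.0557), without WT replicate 3 (0.0682), after median centring (0.0612) and after quantile normalization (0.192).

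The other WNT ligands were below the filter. WNT2B had 0.676, 0.697 and 0.752 FPKM in KO1 and 0.662, 0.549 and 0.546 FPKM in KO2, against 0.159, 0.215 and 0.291 FPKM in WT. WNT2B was above WT in every edited library. WNT10A had 0, 0.0727 and 0.0357 FPKM in KO1 and 0, 0.0352 and 0 FPKM in KO2, against 0.319, 0.295 and 0.370 FPKM in WT. WNT10A, close kin of WNT10B, went the other way, with every edited library below every WT library. WNT8B had 0.331, 0.307 and 0.130 FPKM in KO1 and 0.788, 0.382 and 0.367 FPKM in KO2, against 0.193, 0.356 and 0.625 FPKM in WT. The WNT8B groups overlapped. WNT5B reached 0.391 FPKM in a KO1 library and at most 0.125 in KO2 and 0.0699 in WT. WNT1, which is the neighbour of WNT10B on chromosome 12, stayed at or below 0.0358 FPKM in KO1, 0.0367 in KO2 and 0.116 in WT. The rows of WNT2, WNT3A, WNT6, WNT7A, WNT7B, WNT8A, WNT9B and WNT16 were listed at 0 in all libraries.

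To read genes below the filter, the same model was fitted with a filter of 0.1 FPKM in 3 libraries and a pseudocount of 0.1, which took in 44 of the 93 genes. Among these KO1 had 29 rises and 4 falls, against 33.7% and 28.0% of the 14318 genes tested that way, and KO2 had 28 rises and 5 falls, against 34.8% and 22.8%. On that scale WNT2B rose in KO1 (1.35 ± 0.21, adjusted p = 0.000231) and KO2 (1.11 ± 0.21, adjusted p = 0.000999). WNT10A fell in KO1 (-1.68 ± 0.30, adjusted p = 0.000699) and KO2 (-1.95 ± 0.30, adjusted p = 0.000297). WNT8B passed in neither line (adjusted p = 0.381 and 0.482).

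**Figure D3:**
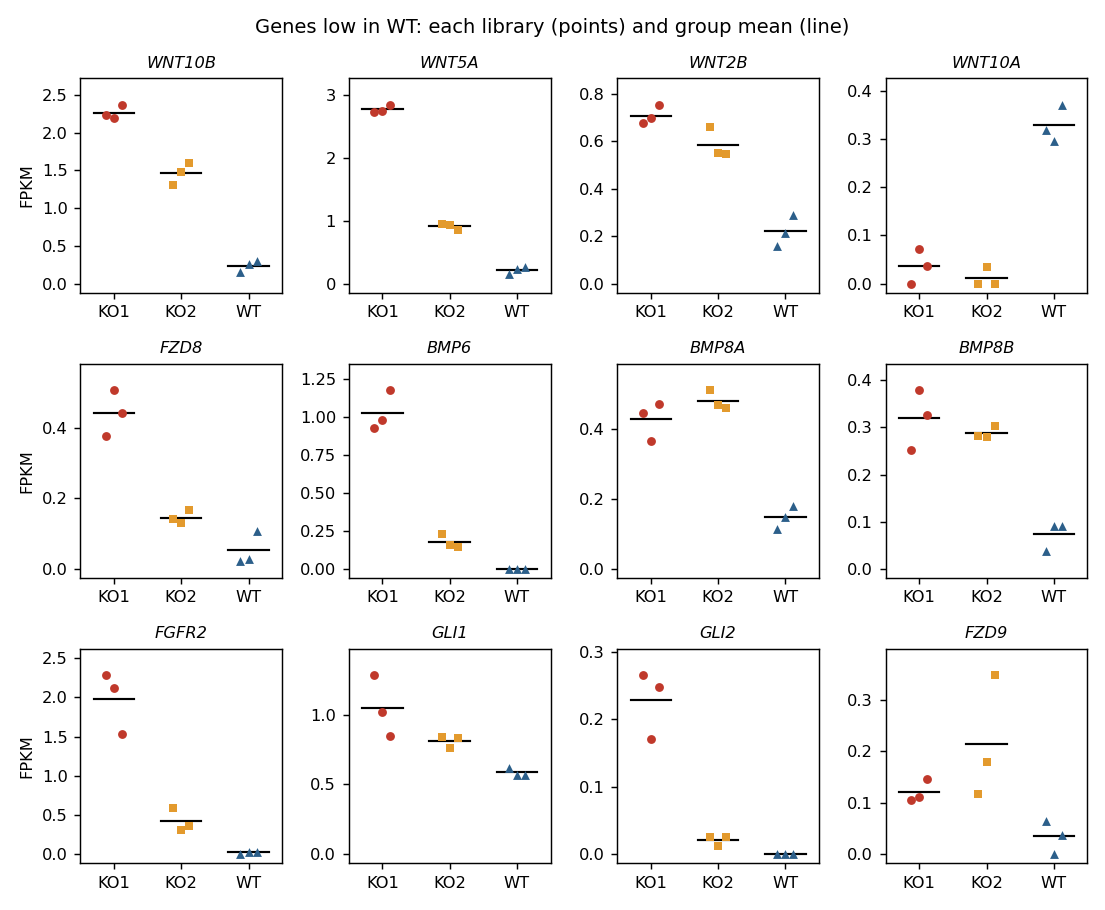
FPKM of 12 genes that were low in WT, with each library as a point (KO1 circles, KO2 squares, WT triangles) and the group mean as a line, on linear axes that differ between panels. BMP6 and GLI2 were listed at 0 in every WT library, and WNT10A is the 1 gene of the 12 that was higher in WT than in both edited lines. The 12 were picked for display without a rule and are not all the genes low in WT, so their directions are not a result.

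Of the 6 tested Frizzled genes 5 rose in KO1 and 3 in KO2, and both coreceptors rose in both lines. Over all tested genes 35.6% rose in KO1 and 38.1% in KO2. FZD1 had 8.54, 10.1 and 9.16 FPKM in KO1 and 6.80, 6.70 and 7.45 FPKM in KO2, against 2.06, 2.42 and 2.05 FPKM in WT. FZD1 had the largest rise of the 6 tested Frizzled genes in both lines, with no overlap between any of the groups (1.69 ± 0.08, adjusted p = 2.34e-08 in KO1, 1.33 ± 0.08, adjusted p = 2.09e-07 in KO2). FZD6 had 20.4, 23.5 and 23.8 FPKM in KO1 and 18.7, 17.7 and 19.9 FPKM in KO2, against 11.5, 10.2 and 9.91 FPKM in WT. FZD6, a receptor known for planar polarity signalling, was the most abundant Frizzled gene in every group and rose in both lines (1.03 ± 0.07, adjusted p = 6.13e-07 in KO1, 0.77 ± 0.07, adjusted p = 6.9e-06 in KO2).

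FZD3 had 7.87, 8.74 and 8.14 FPKM in KO1 and 7.27, 6.26 and 7.25 FPKM in KO2, against 4.86, 4.42 and 5.0 FPKM in WT. FZD3, also a polarity receptor, rose in both lines (0.68 ± 0.07, adjusted p = 1.36e-05 in KO1, 0.46 ± 0.07, adjusted p = 0.0003 in KO2). FZD5 and FZD7 rose in KO1 by 0.34 ± 0.10 (adjusted p = 0.00928) and 0.42 ± 0.10 (adjusted p = 0.00439), and their KO2 libraries overlapped WT, with log2 fold changes of 0.01 and 0.00 (adjusted p = 0.918 and 0.973). After quantile normalization both KO1 calls were lost (0.18 and 0.10, adjusted p = 0.146 and 0.436), and FZD7 fell in KO2 (-0.38, adjusted p = 0.0103). FZD2 stood between 2.10 and 2.35 FPKM in KO1, between 2.11 and 2.88 in KO2 and between 1.92 and 2.08 in WT. It passed in neither line (adjusted p = 0.363 in KO1 and 0.0833 in KO2), though it did in KO2 without KO2 replicate 3 (0.27, adjusted p = 0.0276).

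LRP6 had 12.2, 13.3 and 13.4 FPKM in KO1 and 11.3, 10.8 and 11.7 FPKM in KO2, against 7.70, 7.32 and 7.54 FPKM in WT. LRP6, the main WNT coreceptor, rose in both lines with no overlap with WT (0.71 ± 0.06, adjusted p = 1.26e-06 in KO1, 0.52 ± 0.06, adjusted p = 1.65e-05 in KO2). LRP5 had 10.8, 10.8 and 10.5 FPKM in KO1 and 10.6, 10.8 and 10.3 FPKM in KO2, against 7.09, 8.82 and 7.82 FPKM in WT. LRP5 rose by a smaller amount (0.40 ± 0.07, adjusted p = 0.000503 in KO1, 0.38 ± 0.07, adjusted p = 0.000776 in KO2). Of the 4 untested Frizzled genes, FZD10 was listed at 0 throughout, and FZD4, FZD8 and FZD9 had every edited library above every WT library. FZD8 had 0.377, 0.505 and 0.442 FPKM in KO1 and 0.140, 0.129 and 0.167 FPKM in KO2, against 0.0232, 0.0270 and 0.108 FPKM in WT. FZD8 was highest in KO1. With the lower filter it rose in KO1 (1.86 ± 0.27, adjusted p = 0.000184) and in KO2 (0.72 ± 0.27, adjusted p = 0.044).

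BMP genes moved in both directions. BMP4 had 4.35, 3.62 and 3.19 FPKM in KO1 and 3.13, 3.42 and 2.95 FPKM in KO2, against 4.88, 6.09 and 4.90 FPKM in WT. BMP4, a ligand made by thymic stroma, fell in both lines (-0.42 ± 0.11, adjusted p = 0.0053 in KO1, -0.59 ± 0.11, adjusted p = 0.000648 in KO2), and no edited library reached the WT range. BMP10 had 1.60, 1.64 and 1.40 FPKM in KO1 and 3.11, 2.96 and 3.02 FPKM in KO2, against 2.10, 2.36 and 1.55 FPKM in WT. BMP10, a ligand known from the heart, overlapped WT in KO1 and was above it in KO2. It rose in KO2 (0.43 ± 0.10, adjusted p = 0.00359), and in KO1 it had -0.23 ± 0.10 (adjusted p = 0.067). Without WT replicate 3 the lower KO1 value passed (-0.34, adjusted p = 0.00696), as it did after quantile normalization (-0.39, adjusted p = 0.00563).

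BMP6 and the paired genes BMP8A and BMP8B were below the filter. BMP6 had 0.930, 0.984 and 1.18 FPKM in KO1 and 0.231, 0.159 and 0.143 FPKM in KO2, and was listed at 0 in all 3 WT libraries. BMP6 was thus seen in every edited library and listed at 0 in every WT library, and no fold is given against WT. BMP8A had 0.446, 0.368 and 0.473 FPKM in KO1 and 0.512, 0.471 and 0.460 FPKM in KO2, against 0.115, 0.149 and 0.180 FPKM in WT. BMP8B had 0.253, 0.379 and 0.326 FPKM in KO1 and 0.282, 0.281 and 0.302 FPKM in KO2, against 0.0389, 0.0904 and 0.0907 FPKM in WT. Both BMP8 genes were above WT in every edited library. With the lower filter BMP8A rose in KO1 (1.09 ± 0.20, adjusted p = 0.000916) and KO2 (1.23 ± 0.20, adjusted p = 0.000469), and BMP8B in KO1 (1.28 ± 0.24, adjusted p = 0.000992) and KO2 (1.18 ± 0.24, adjusted p = 0.00189). These 2 genes are near copies of each other, so the split of fragments between them is uncertain. BMP5 and BMP15 were listed at 0 in all libraries, and BMP2, BMP3 and BMP7 reached at most 0.102, 0.0456 and 0.0217 FPKM.

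Of the BMP receptors BMPR1A and BMPR2 were tested. BMPR1A had 9.65, 9.71 and 9.62 FPKM in KO1 and 9.24, 9.73 and 9.09 FPKM in KO2, against 7.44, 7.16 and 7.18 FPKM in WT. BMPR1A, a type I receptor, rose in both lines (0.37 ± 0.05, adjusted p = 9.61e-05 in KO1, 0.32 ± 0.05, adjusted p = 0.000268 in KO2). BMPR2 had 5.20, 5.09 and 4.90 FPKM in KO1 and 3.73, 2.87 and 3.25 FPKM in KO2, against 4.40, 4.31 and 4.80 FPKM in WT. BMPR2, the type II receptor that activates it, had every KO1 library above WT and every KO2 library below. It fell in KO2 (-0.36 ± 0.08, adjusted p = 0.00262), and its difference in KO1 did not pass (0.14 ± 0.08, adjusted p = 0.15). BMPR1B, the other type I gene of the family, reached at most 0.0768 FPKM.

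In the FGF branch the ligand FGF9 and the receptors FGFR1 and FGFR2 stood out by their values. FGF9 had 7.47, 8.47 and 7.77 FPKM in KO1 and 5.20, 4.93 and 5.20 FPKM in KO2, against 3.18, 2.60 and 2.76 FPKM in WT. FGF9 rose in both lines, with no overlap between any of the groups (1.21 ± 0.08, adjusted p = 1.86e-07 in KO1, 0.67 ± 0.08, adjusted p = 2.09e-05 in KO2). FGFR1 had 12.9, 13.2 and 12.7 FPKM in KO1 and 9.91, 10.6 and 9.63 FPKM in KO2, against 4.56, 4.68 and 4.42 FPKM in WT. FGFR1 was the most abundant FGF receptor gene in every group and likewise showed no overlap (1.33 ± 0.06, adjusted p = 1.14e-08 in KO1, 0.99 ± 0.06, adjusted p = 1.4e-07 in KO2).

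FGFR2 had 2.28, 2.12 and 1.54 FPKM in KO1 and 0.594, 0.302 and 0.362 FPKM in KO2, against 0, 0.0312 and 0.0313 FPKM in WT. FGFR2 was listed at 0 in WT replicate 1 and stood at most at 0.0313 FPKM in WT, and every KO1 library was above every KO2 library. It rose in KO1 (1.54 ± 0.12, adjusted p = 1.03e-06) and KO2 (0.47 ± 0.12, adjusted p = 0.00551), and with the lower filter and pseudocount by 4.10 ± 0.26 and 2.08 ± 0.26 (adjusted p = 4.44e-07 and 7.61e-05). The KO2 call was lost after quantile normalization (0.10, adjusted p = 0.494).

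FGFR3 had 0.995, 1.13 and 0.891 FPKM in KO1 and 1.91, 1.85 and 2.22 FPKM in KO2, against 1.17, 1.14 and 1.09 FPKM in WT. FGFR3 overlapped WT in KO1 and was above it in KO2. It rose in KO2 (0.49 ± 0.09, adjusted p = 0.000517) and had -0.09 ± 0.09 in KO1 (adjusted p = 0.366), a value that passed as lower after quantile normalization (-0.35, adjusted p = 0.00638). FGFR4 had 2.2, 1.73 and 1.43 FPKM in KO1 and 2.64, 2.42 and 2.04 FPKM in KO2, against 1.26, 0.920 and 1.40 FPKM in WT. FGFR4 rose in KO2 (0.62 ± 0.12, adjusted p = 0.00131), while its smaller rise in KO1 (0.34 ± 0.12, adjusted p = 0.0314) was lost without KO1 replicate 1 (0.24, adjusted p = 0.123), KO1 replicate 2 (0.35, adjusted p = 0.0611) or WT replicate 2 (0.25, adjusted p = 0.123). It was also lost with no filter (adjusted p = 0.0592) and after quantile normalization (0.16, adjusted p = 0.263).

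FGF11 belongs to the FGF homologous factors, which stay inside the cell and do not act through the receptors. It stood between 1.00 and 1.82 FPKM in KO1, between 1.56 and 1.73 in KO2 and between 0.855 and 1.07 in WT. It rose in KO2 (0.43 ± 0.12, adjusted p = 0.00911), a call lost after quantile normalization (adjusted p = 0.13), and in KO1 it passed only without KO1 replicate 3 (0.43, adjusted p = 0.00358) or with a replicate block (0.29, adjusted p = 0.0321). Its exons overlap other annotated transcripts on both strands, so its level is uncertain. The other FGF ligand genes were close to 0, with FGF8 the highest of the 17 untested at 0.471 FPKM in a WT library, and its groups overlapped.

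Hedgehog genes were represented by the receptor side and the GLI factors. SMO had 8.72, 8.37 and 7.91 FPKM in KO1 and 8.45, 8.35 and 8.26 FPKM in KO2, against 4.63, 5.55 and 5.54 FPKM in WT. SMO, the transducer of the pathway, rose in both lines by nearly the same amount (0.58 ± 0.07, adjusted p = 3.37e-05 in KO1, 0.59 ± 0.07, adjusted p = 3.78e-05 in KO2). PTCH1 had 1.65, 1.67 and 1.79 FPKM in KO1 and 2.04, 2.06 and 2.15 FPKM in KO2, against 2.88, 3.09 and 3.17 FPKM in WT. PTCH1, the receptor that holds SMO inactive, fell in both lines, with no overlap between any of the groups (-0.58 ± 0.07, adjusted p = 3.02e-05 in KO1, -0.39 ± 0.07, adjusted p = 0.000616 in KO2). HHIP had 18.8, 17.9 and 18.4 FPKM in KO1 and 18.4, 17.0 and 17.6 FPKM in KO2, against 13.1, 14.1 and 15.1 FPKM in WT. HHIP, a membrane protein that binds and sequesters Hedgehog ligands, was the most abundant of the 10 Hedgehog genes matched by symbol in every group and rose (0.36 ± 0.06, adjusted p = 0.000233 in KO1, 0.31 ± 0.06, adjusted p = 0.000776 in KO2).

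GLI3 had 7.74, 6.95 and 6.94 FPKM in KO1 and 3.59, 3.57 and 3.62 FPKM in KO2, against 2.79, 2.96 and 2.84 FPKM in WT. GLI3, mostly a repressor when no ligand is present, was far higher in KO1 than in KO2 and rose in both (1.09 ± 0.06, adjusted p = 1.4e-07 in KO1, 0.25 ± 0.06, adjusted p = 0.00611 in KO2). The KO2 call was lost after quantile normalization (0.14, adjusted p = 0.0698). GLI1 had 1.28, 1.02 and 0.845 FPKM in KO1 and 0.839, 0.763 and 0.829 FPKM in KO2, against 0.620, 0.570 and 0.568 FPKM in WT. GLI1, an activator and itself a target of the pathway, was above WT in every edited library. With the lower filter GLI1 rose in KO1 (0.73 ± 0.17, adjusted p = 0.00429) and did not pass in KO2 (0.41 ± 0.17, adjusted p = 0.0672).

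GLI2 had 0.265, 0.170 and 0.249 FPKM in KO1 and 0.0257, 0.0118 and 0.0254 FPKM in KO2, and was listed at 0 in all 3 WT libraries. GLI2, the main activator of the pathway, was thus listed at 0 in all WT libraries, and no fold is given against them. The ligand genes SHH, IHH and DHH had at most 0.0568, 0.0829 and 0.0461 FPKM in any library.

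The genes that share only a family name moved in both directions. BMP2K had 68.0, 68.5 and 71.9 FPKM in KO1 and 64.8, 61.9 and 68.3 FPKM in KO2, against 29.8, 29.9 and 31.1 FPKM in WT. BMP2K rose in both lines (1.17 ± 0.05, adjusted p = 6.29e-09 in KO1, 1.08 ± 0.05, adjusted p = 1.99e-08 in KO2). FGFR1OP2 had 40.7, 41.7 and 42.2 FPKM in KO1 and 42.1, 41.8 and 40.0 FPKM in KO2, against 75.5, 70.7 and 66.2 FPKM in WT. FGFR1OP2 fell in both (-0.75 ± 0.05, adjusted p = 2.96e-07 in KO1, -0.76 ± 0.05, adjusted p = 3.69e-07 in KO2). BMP1 rose in both lines (0.55 ± 0.07 in KO1 and 0.66 ± 0.07 in KO2, adjusted p = 6.74e-05 and 1.91e-05), and FGFR1OP rose in KO1 (0.23 ± 0.05, adjusted p = 0.00206), with 0.00 ± 0.05 in KO2 (adjusted p = 0.968). GLI4 passed in neither line (adjusted p = 0.315 in KO1 and 0.0569 in KO2), though it did in KO2 without KO2 replicate 1 (0.39, adjusted p = 0.0119) or WT replicate 3 (0.35, adjusted p = 0.0355). Without these 5 genes, KO1 had 17 rises and 2 falls among 25 genes, and KO2 had 19 rises and 3 falls.

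The edited lines differed from each other in 17 of the 30 tested genes, against 30.6% of all tested genes, and most of these were lower in KO2 than in KO1. In the comparison of KO2 with KO1, 14 fell and 3 rose, against 12.4% and 18.3% of all tested genes, and the median log2 fold change was -0.13, beside 0.04 over all tested genes. Of the 70 genes above 0 in any library, 5 had every KO2 library above every KO1 library and 24 every KO2 library below, against 20.8% and 15.4% of all genes above 0. With the lower filter and pseudocount 3 rose and 16 fell, against 14.8% and 11.0%. FGFR2, WNT5A and FZD7 passed the filter through KO1 libraries only, so part of their fall in KO2 is set by it. Without them 11 of 27 genes fell and 3 rose, with a median of -0.05. No share over all genes was taken with the same restriction. The largest differences were those of FGFR2 (-1.07 ± 0.12, adjusted p = 0.000103), WNT5A (-0.98 ± 0.08, adjusted p = 1.16e-05) and GLI3 (-0.84 ± 0.06, adjusted p = 8.46e-06). The genes higher in KO2 were BMP10 (0.66 ± 0.10, adjusted p = 0.0008), FGFR3 (0.58 ± 0.09, adjusted p = 0.000601) and WNT3 (0.27 ± 0.07, adjusted p = 0.0123). SMO, LRP5 and HHIP did not pass, with log2 differences of 0.00 ± 0.07, -0.02 ± 0.07 and -0.05 ± 0.06 (adjusted p = 0.972, 0.87 and 0.53).

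**Figure D4:**
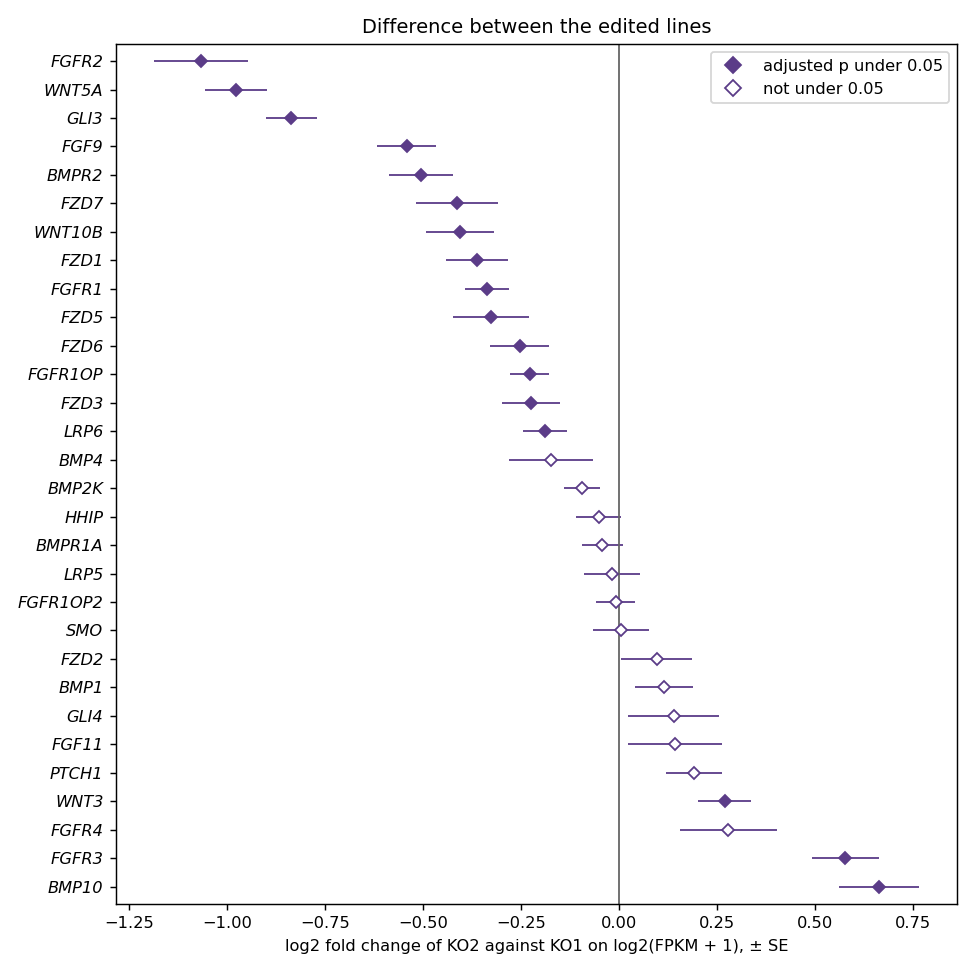
Log2 fold change of KO2 against KO1 (± SE, limma, on log2(FPKM + 1)) for the 30 tested genes, ordered by value, with filled diamonds for adjusted p under 0.05. The 14 filled diamonds left of 0 start with FGFR2 at -1.07, and the 3 to the right are WNT3, FGFR3 and BMP10.

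Some of the smaller differences passed with all libraries and missed the threshold when 1 library was left out, with log2 differences that stayed negative. FZD3 (-0.23, adjusted p = 0.0423) was lost without any of the 6 edited libraries (adjusted p = 0.0516 without KO1 replicate 1, 0.14 and 0.08 without KO1 replicates 2 and 3, and 0.0576, 0.156 and 0.0561 without KO2 replicates 1, 2 and 3). FZD6 (-0.25, adjusted p = 0.0266) was lost without KO1 replicate 2 (0.0914) or 3 (0.0889) and without KO2 replicate 1 (0.0713) or 2 (0.1). LRP6 (-0.19, adjusted p = 0.0293) was lost without KO1 replicate 2 (0.096) or 3 (0.0922) and without KO2 replicate 1 (0.0723) or 2 (0.11). FZD5 (-0.33, adjusted p = 0.0262) was lost without KO1 replicate 2 (0.0966) or KO2 replicate 1 (0.0974). FGFR4, which did not pass (adjusted p = 0.116), passed as higher in KO2 without KO1 replicate 1 (0.38, adjusted p = 0.0474).

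The genes around BMPR2, FZD5 and FZD7 on chromosome 2 were lower in KO2. For each tested gene the median log2 fold change of the 30 tested genes nearest to it, 15 on either side, was taken (24 in all for FGFR1OP), with the gene order of RefSeq on GRCh38.p14. Around BMPR2, FZD5 and FZD7, all on chromosome 2, it was -0.31, -0.23 and -0.36 in KO2 and 0.01, 0.13 and -0.01 in KO1. Their own log2 fold changes in KO2 were -0.36, 0.01 and 0.00. Between KO2 and KO1 the neighbours stood at -0.33, -0.40 and -0.33, beside -0.51, -0.33 and -0.41 for the 3 genes. The part of the neighbours' shift in these genes was not tested. Around BMP10, on the same chromosome, the neighbours stood at -0.01 in KO2, and around the other 26 tested genes they lay between -0.09 and 0.25 in KO2 and between -0.16 and 0.22 in KO1.

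The rest of the pathways was read from 118 further genes listed by branch, of which 72 passed the filter. KO1 had 36 rises and 18 falls among these and KO2 had 35 rises and 17 falls, to be read against 35.6% higher and 31.9% lower in KO1 and 38.1% and 26.6% in KO2 over all tested genes. However, 13 of the 72 passed the filter through edited libraries only and are high there by selection. They are ACVR2A, BAMBI, CHRDL1, NBL1, NOG and SMAD9 in the BMP branch, DISP1, GAS1, GPR161 and HHAT in the Hedgehog branch, PYGO1 and WLS in the WNT branch, and IL17RD in the FGF branch. Among the other 59 genes KO1 had 23 rises and 18 falls and KO2 had 24 rises and 17 falls, with medians of 0.06 in both, beside 0.02 and 0.06 over all tested genes. The shares and medians over all tested genes do not carry this restriction, so they are not a matching background. These 59 genes were freed of selection on the edited side only. FGFBP2, which passed the filter through WT libraries only, was kept among them and counts as a fall in both lines.

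Branch by branch the same restriction left small numbers. The BMP branch had 9 rises and 2 falls among 14 genes in KO1, and 7 rises and 2 falls in KO2. The Hedgehog branch had 3 rises and 1 fall among 6 genes in each line. In the FGF branch 14 genes gave 5 rises and 7 falls in KO1, and 4 rises and 7 falls in KO2, with FGFBP2 among the falls. In the WNT branch 25 genes gave 6 rises and 8 falls in KO1, and 10 rises and 7 falls in KO2.

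Exons of BMP2K, BMP8A, BMP8B, FGF11, FGFR1, FGFR1OP, FZD4, FZD6, GLI1, GLI4, HHIP, PTCH1, SMO and WNT2B overlap those of another gene in the reference annotation. Whether fragments were counted by strand is not given in the sources used here, so fragments of these genes and of the overlapping genes cannot be told apart.

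In the BMP branch ID1 and NBL1 rose and SMAD6 fell in both lines. ID1 had 14.5, 16 and 13.2 FPKM in KO1 and 7.82, 9.48 and 9.36 FPKM in KO2, against 0.992, 1.18 and 1.18 FPKM in WT. ID1, a direct target of BMP SMADs, rose in both lines (2.88 ± 0.09, adjusted p = 1.48e-09 in KO1, 2.22 ± 0.09, adjusted p = 1.55e-08 in KO2). NBL1 had 8.74, 9.24 and 5.97 FPKM in KO1 and 5.23, 6.96 and 6.02 FPKM in KO2, against 0.488, 0.866 and 0.000599 FPKM in WT. NBL1, a secreted BMP antagonist, rose (2.66 ± 0.21, adjusted p = 1.36e-06 in KO1, 2.32 ± 0.21, adjusted p = 4.88e-06 in KO2), with a wide spread in WT. SMAD6 had 3.17, 2.98 and 3.33 FPKM in KO1 and 4.48, 4.85 and 4.36 FPKM in KO2, against 6.92, 7.67 and 9.27 FPKM in WT. SMAD6, an inhibitory SMAD, fell in both lines (-1.10 ± 0.09, adjusted p = 2.08e-06 in KO1, -0.68 ± 0.09, adjusted p = 9.42e-05 in KO2).

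CHRDL1 had 7.47, 7.02 and 7.60 FPKM in KO1 and 0.0917, 0.0619 and 0.0680 FPKM in KO2, and was listed at 0 in all 3 WT libraries. CHRDL1, another secreted BMP antagonist, was thus measured mainly in KO1 and listed at 0 in WT, and it passed the filter through KO1 libraries only, so its difference between KO2 and KO1 (-2.96 ± 0.08, adjusted p = 2.38e-09) is partly set by the filter. The effector SMAD1 and the decoy receptor BAMBI, named after their values were seen, also rose. SMAD1 had 16, 15.6 and 16.4 FPKM in KO1 and 12.5, 10.6 and 10.8 FPKM in KO2, against 4.54, 5.14 and 4.92 FPKM in WT. It rose in KO1 (1.54 ± 0.07, adjusted p = 2.02e-08) and in KO2 (1.07 ± 0.07, adjusted p = 4.05e-07). BAMBI had 7.92, 7.41 and 8.59 FPKM in KO1 and 4.52, 4.04 and 4.10 FPKM in KO2, against 0.364, 0.209 and 0.105 FPKM in WT. BAMBI rose in KO1 (2.88 ± 0.09, adjusted p = 1.85e-09) and in KO2 (2.09 ± 0.09, adjusted p = 2.75e-08).

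In the WNT branch WLS and PYGO1 rose in both lines, and AXIN2 rose in KO1. WLS had 4.04, 4.80 and 4.86 FPKM in KO1 and 2.14, 1.83 and 1.43 FPKM in KO2, against 0, 0 and 0.0311 FPKM in WT. WLS, which carries WNT ligands to the cell surface, rose in both lines (2.46 ± 0.11, adjusted p = 1.34e-08 in KO1, 1.46 ± 0.11, adjusted p = 8.28e-07 in KO2). PYGO1 had 2.22, 2.81 and 3.08 FPKM in KO1 and 1.26, 1.16 and 0.987 FPKM in KO2, against 0.0339, 0.0297 and 0.00995 FPKM in WT. PYGO1, a cofactor of β-catenin, rose as well (1.85 ± 0.10, adjusted p = 8.4e-08 in KO1, 1.06 ± 0.10, adjusted p = 7.46e-06 in KO2). AXIN2 had 9.20, 9.07 and 8.44 FPKM in KO1 and 3.08, 3.47 and 3.19 FPKM in KO2, against 3.5, 3.77 and 3.30 FPKM in WT. AXIN2, a feedback inhibitor and a widely used target of β-catenin, rose in KO1 (1.13 ± 0.07, adjusted p = 1.77e-07) and overlapped WT in KO2 (-0.09 ± 0.07, adjusted p = 0.281), a value that passed as lower after quantile normalization (-0.18, adjusted p = 0.0381). Between the lines AXIN2 fell in KO2 by 1.22 ± 0.07 on the log2 scale (adjusted p = 1.05e-06).

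KREMEN1, a receptor for DKK proteins, fell by 0.99 ± 0.06 in KO1 and 0.98 ± 0.06 in KO2 (adjusted p = 1.41e-07 and 2.25e-07). NKD2, an inhibitor that binds Dishevelled, fell by 0.75 ± 0.12 and 0.50 ± 0.12 (adjusted p = 0.000182 and 0.00311). The transcription factors LEF1 and TCF7, named after their values were seen, are also genes of the T lineage. LEF1 stood between 188 and 194 FPKM in KO1, between 150 and 155 in KO2 and between 261 and 264 in WT, and fell in both lines (-0.46 ± 0.03 and -0.77 ± 0.03, adjusted p = 3.22e-07 and 1.33e-08). TCF7 stood between 162 and 168 FPKM in KO1, between 178 and 185 in KO2 and between 194 and 197 in WT, and fell too (-0.23 ± 0.03 and -0.11 ± 0.03, adjusted p = 9.05e-05 and 0.0123).

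**Figure D5:**
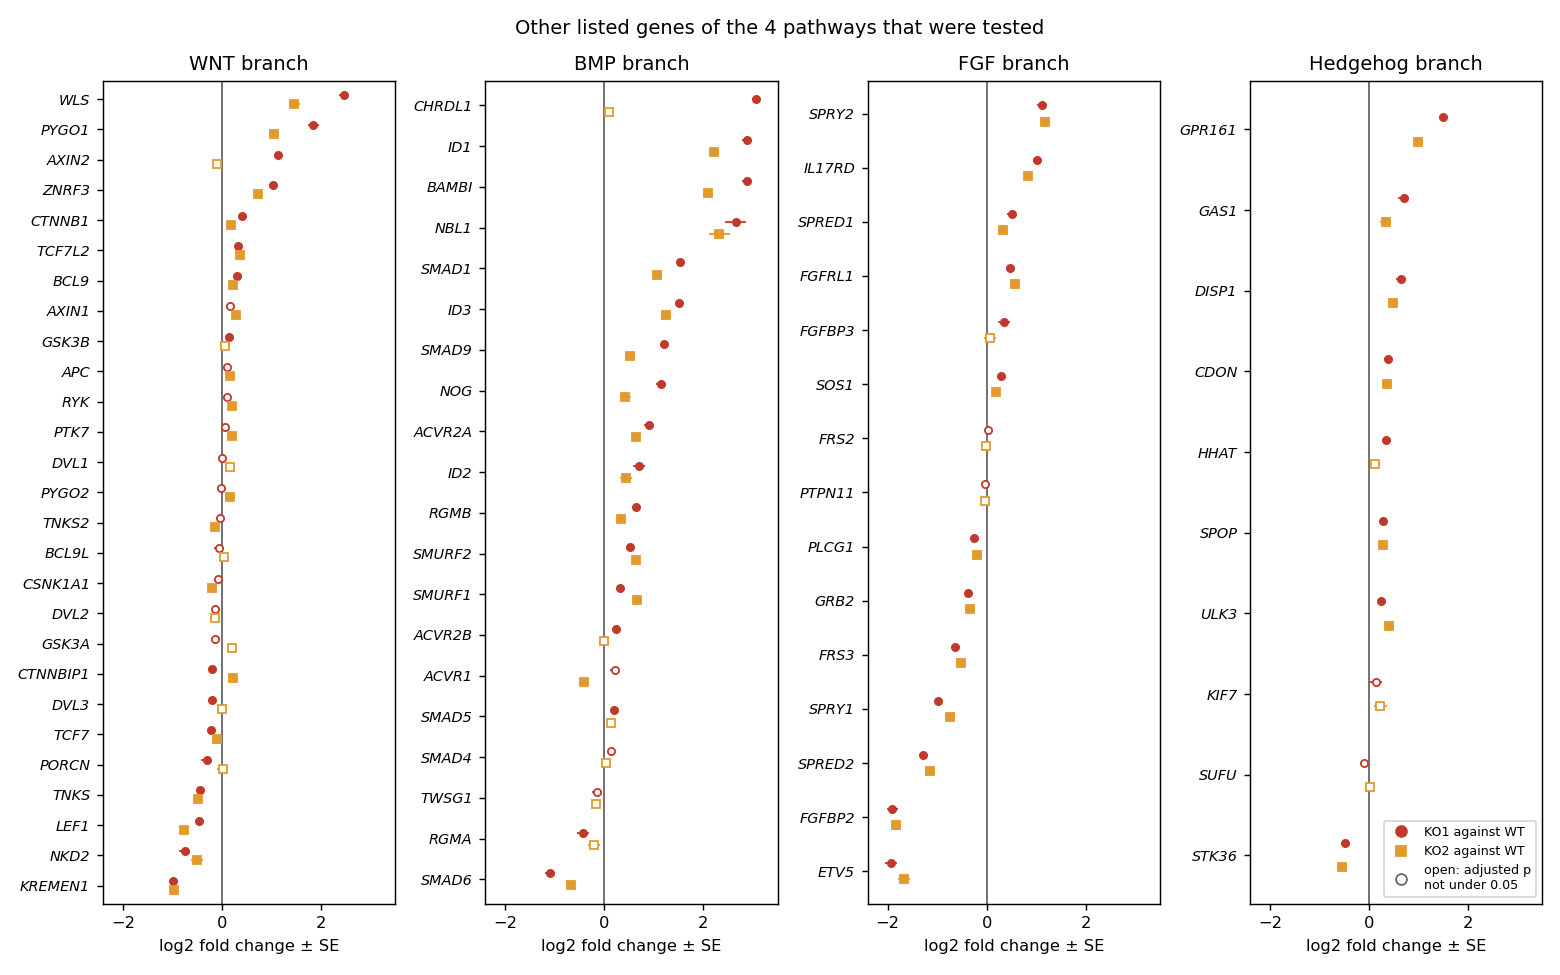
Log2 fold change (± SE, limma, on log2(FPKM + 1)) of the 72 tested genes among the 118 further pathway genes, by branch, in KO1 (circles) and KO2 (squares) against WT, with filled symbols for adjusted p under 0.05. Most genes of the BMP and Hedgehog panels lie right of 0, including 6 and 4 genes that passed the filter through edited libraries only, and the FGF and WNT panels hold both directions.

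In the FGF branch the feedback inhibitors split. SPRY2 had 4.37, 5.12 and 4.95 FPKM in KO1 and 5.10, 4.80 and 5.27 FPKM in KO2, against 1.96, 1.85 and 1.26 FPKM in WT. SPRY2 rose in both lines (1.12 ± 0.10, adjusted p = 4.21e-06 in KO1, 1.18 ± 0.10, adjusted p = 3.57e-06 in KO2), as did IL17RD, another inhibitor of the pathway (1.02 ± 0.09 and 0.84 ± 0.09, adjusted p = 1.77e-06 and 1.03e-05). SPRY1 had 4.23, 4.35 and 4.68 FPKM in KO1 and 5.78, 5.60 and 4.96 FPKM in KO2, against 9.52, 9.78 and 9.75 FPKM in WT. SPRY1 fell (-0.98 ± 0.07, adjusted p = 3.93e-07 in KO1, -0.73 ± 0.07, adjusted p = 4.77e-06 in KO2). Its difference between KO2 and KO1 (0.25, adjusted p = 0.0174) was lost without KO1 replicate 1 (0.0553) or 2 (0.0542) and without KO2 replicate 1 (0.07) or 2 (0.0621). ETV5 had 0.521, 0.510 and 0.637 FPKM in KO1 and 1.05, 0.930 and 0.617 FPKM in KO2, against 5.80, 4.37 and 4.67 FPKM in WT. ETV5, a transcription factor induced by FGF signalling, fell in both lines (-1.93 ± 0.12, adjusted p = 1.53e-07 in KO1, -1.67 ± 0.12, adjusted p = 6.1e-07 in KO2). Without KO2 replicate 3 it was also higher in KO2 than in KO1 (0.36, adjusted p = 0.049). FGFBP2 was listed at 0 in all 3 KO1 libraries and had 0.169, 0 and 0 FPKM in KO2, against 2.77, 3.16 and 2.35 FPKM in WT. FGFBP2, which despite its name is known as a secreted protein of cytotoxic lymphocytes, was thus seen in WT and listed at 0 in every KO1 library. It passed the filter through WT libraries only, so part of its difference from WT is set by the filter.

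In the Hedgehog branch GPR161, a ciliary receptor that restrains the pathway, was below 1 FPKM in every WT library. GPR161 had 3.82, 3.86 and 3.67 FPKM in KO1 and 2.61, 2.02 and 2.48 FPKM in KO2, against 0.658, 0.844 and 0.579 FPKM in WT. It rose in both lines (1.5 ± 0.09, adjusted p = 1.84e-07 in KO1, 0.99 ± 0.09, adjusted p = 5.5e-06 in KO2) and was lower in KO2 than in KO1 (-0.51 ± 0.09, adjusted p = 0.00229). DISP1, which releases Hedgehog ligands from the cells that make them, rose by 0.64 ± 0.10 and 0.49 ± 0.10 (adjusted p = 0.000181 and 0.00133), the KO2 call being lost after quantile normalization (adjusted p = 0.0627). STK36, a kinase of the pathway, fell in KO1 (-0.48 ± 0.09, adjusted p = 0.000928) and in KO2 (-0.55 ± 0.09, adjusted p = 0.000441).

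Facts of the whole series bear on these values. Each library's FPKM added up to between 417737 and 439704, and the number of fragments is unknown. Pearson correlations of log2(FPKM + 1) over tested genes were 0.989 to 0.993 within groups and 0.931 to 0.953 between edited lines and WT. The EZH2 transcript stood at 103 to 108 FPKM in KO1, 87.9 to 90.7 in KO2 and 74.5 to 79.5 in WT, so its level does not show the edit and does not check the labels. All 11 T-lymphocyte markers were at 1 FPKM or more in every library, with sums of 1352 to 1497 in KO1, 1583 to 1620 in KO2 and 1582 to 1693 in WT. Single markers differed more than the sums, and in both directions. CD2 stood at 87.2 to 94.4 FPKM in KO1, 3.54 to 5.11 in KO2 and 35.0 to 36.6 in WT. CD28 stood at 7.47 to 8.13 FPKM in KO1, 13.2 to 14.1 in KO2 and 34.8 to 35.8 in WT. The 5 myeloid and 5 epithelial markers were under 1 FPKM throughout. Of 5 stromal markers COL1A1 alone reached 1 FPKM, in the edited libraries, with COL3A1 and DCN at 0. Of 5 B-lymphocyte markers CD79A alone did, at 48.5 to 58.2 FPKM in KO1, 19.1 to 22.1 in KO2 and 24.5 to 29 in WT, with PAX5 at 0. The part of these markers in the results was not tested.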

How the data were processed

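RNA-seq libraries of 9 Jurkat cultures were analysed from 1 table of FPKM values that the authors deposited, with 26228 rows. Of these 38 rows carry no numbers and were left out, none of them one of the 93 genes. Per the submitters' processing notes, the tools were bedtools 2.7.0, Cufflinks 2.2.1 and STAR 2.5.0b with the build hg19, in roles that are not stated there. For the gene annotation and the use of strand, nothing is given in the sources used here. That the deposited values are FPKM was read from the tools and the values, and the sequencing depth is unknown.

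Genes with at least 1 FPKM in 3 or more libraries were tested on log2(FPKM + 1) with limma 3.58.1 (empirical Bayes with a trend on the mean level) in R 4.3.3, in 1 model of the 3 groups. P-values were adjusted by Benjamini-Hochberg over all 11737 genes. The code was tested on simulated data. An exact permutation test of 3 libraries against 3 cannot go below 0.1, so none was used.

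The 93 genes and the lists were chosen with earlier results of these data known. Named genes are EZH2, the tested genes, untested genes with a group mean of 0.3 FPKM or more, and, per branch of the further genes, the 2 largest rises and falls that both lines share and the gene with the smallest adjusted p between the lines. Other genes named singly, among them GLI2, WNT5B, SMAD1, BAMBI, LEF1 and TCF7, were chosen after their values were seen. Alternatives changed the filter, pseudocount, scaling, threshold, libraries in the fit and replicate block. Promoter sequences and gene order are from RefSeq, GRCh38.p14. Some single values are not reported here.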

Additional observations from a re-analysis of the deposited data

Results flagged for a closer look

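By the limma test of KO2 against KO1, 17 of the 30 tested genes passed, against 30.6% of all tested genes. The threshold was an adjusted p under 0.05 over all tested genes. In these 17 genes the difference from WT was not the same in the KO2 line as in the KO1 line. Each is given as the log2 fold change in KO2 minus that in KO1, a difference between 2 lines that cannot be told apart from other differences between them. Among WNT ligands the difference was -0.98 for WNT5A, -0.41 for WNT10B and 0.27 for WNT3. Among WNT receptors it was -0.41 for FZD7, -0.36 for FZD1, -0.33 for FZD5, -0.25 for FZD6, -0.23 for FZD3 and -0.19 for LRP6. In the BMP branch it was 0.66 for BMP10 and -0.51 for BMPR2. In the FGF branch it was -1.07 for FGFR2, -0.54 for FGF9, -0.34 for FGFR1 and 0.58 for FGFR3. GLI3 had -0.84 and FGFR1OP, a gene of the family by name, -0.23. FGFR2, WNT5A and FZD7 passed the filter through KO1 libraries only, so part of their difference is set by it. The calls of FZD3, FZD5, FZD6 and LRP6 were each lost when certain single libraries were left out.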

How the results depend on the processing

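For single genes 141 results were set against 20 alternative settings. This gave 2754 values, since a gene that missed the filter of a setting had none there. Of these values 2686 kept the call or the lack of one, 53 lost the call, 14 gained one and 1 reversed. A value that passed in neither setting counts as kept, whatever its direction. Leaving out a library of the group not compared, changing the filter alone or adding the replicate block left log2 fold changes as they were. Only the adjusted p could move there, so the number kept does not measure robustness. FZD7 in KO2 was -0.38 after quantile normalization, against 0.00. With no filter 33 genes were higher in KO1, against 4863 of all 18182 genes tested that way. The filter of 5 FPKM left 9119 genes. There 1 was lower in KO1, 1 lower in KO2, 1 higher and 8 lower in KO2 than in KO1. Over all genes these counts were 3081, 2602, 1827 and 1074. Of the further genes at that filter 22 were higher in KO1, 23 higher in KO2 and 12 lower in KO2 than in KO1. Over all 9119 genes these counts were 3268, 3551 and 1074. How many of the further genes passed that filter is not given here. Filters change which genes are tested, so these counts do not show more or fewer calls among the same genes. Quantile normalization gave 5 lower in KO1, against 4034 of all 11737 genes. It gave 17 higher in KO1 and 16 in KO2, against 3953 and 3801 of all genes. Of the 72 further genes 34 were then higher in KO1 and 25 in KO2, from 36 and 35 in the main fit. At adjusted p under 0.01, 9 genes were lower and 3 further genes higher in KO2 than in KO1. The share of all genes at that threshold is not given here. The KO1 median (0.38) was 0.10 with no filter, 0.63 at 5 FPKM, 0.52 with pseudocount 0.1 and 0.70 with that and a filter of 0.1 FPKM. The KO2 median (0.43) was 0.0698, 0.49, 0.55 and 0.58 in the same order, 0.27 with a filter of 0.1 FPKM, 0.50 with pseudocount 0.5, 0.27 after quantile normalization and 0.39 after median centring. The median of KO2 against KO1 (-0.13) was -0.0336 with no filter, -0.0737 and -0.20 with a filter of 0.1 FPKM without and with pseudocount 0.1, -0.15 with pseudocount 0.1, -0.16 after quantile normalization and -0.17 after median centring. The cause of these shifts was not tested. Leaving out 1 library at a time gave 19 to 21 higher and 3 to 4 lower in KO1, 20 to 22 higher and 4 lower in KO2, and 3 to 4 higher and 10 to 14 lower in KO2 than in KO1. The medians then ran from 0.37 to 0.43, 0.38 to 0.46 and -0.14 to -0.0947, and 5 to 9 further genes were higher in KO2 than in KO1. Of all calls between KO2 and KO1, 59.7% were higher, against 49% after quantile normalization and 47.9% after median centring. With a replicate block 21 genes were higher and 3 lower in KO1, 21 and 4 in KO2, and 3 and 11 in KO2 against KO1. The numbers were not used to pair the samples in the main fit. Correlations of same-numbered libraries, taken on deviations from group means, ran from -0.287 to 0.318, and 4 of 9 correlated best with their own number. Among WT libraries, each KO2 library correlated best with its own number (0.318, 0.033 and 0.232 for replicates 1, 2 and 3). Whether the numbers pair KO2 with WT was not tested. FPKM gives no depth, so counting error could not be given.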
